A study of Mus musculus with 6 samples.

Results

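The CBX genes examined here encode chromodomain proteins of 2 kinds, the heterochromatin protein 1 (HP1) members CBX1, CBX3 and CBX5 and the Polycomb members CBX2, CBX6, CBX7 and CBX8. These 7 genes of 58870 in the files were chosen by gene symbol with earlier results of this contrast known, and they comprise 37 of 208621 isoforms. Their levels are therefore given as a description, without a test of the family. Transcripts were measured by RNA-seq in 77-5 cells, a single T-REx-293 clone with a minigene of mouse Ntrk2 (TrkB), made from a bacterial artificial chromosome, and an Rbfox1 gene switched on by doxycycline. The parent T-REx-293 line descends from HEK293 cells of human embryonic kidney and makes the tetracycline repressor. There were 3 samples treated with doxycycline for 48 h (Dox) and 3 untreated samples (No Dox), all with the minigene and the inducible Rbfox1. The dose is 0.5 mg/ml in the labels and in the methods of the study, whereas its figure legends give micrograms per ml. Doxycycline and induced Rbfox1 came together in the Dox samples, so their effects cannot be told apart. The labels name mouse as the organism, although the cells and the transcripts measured are human.

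HP1 proteins hold the chromodomain at the amino end, which binds histone H3 methylated on lysine 9 (H3K9), and a chromoshadow domain at the other end, through which they dimerise and recruit partners. They are best known for compacting pericentric heterochromatin. The Polycomb CBX proteins read H3 methylated on lysine 27, the mark made by Polycomb repressive complex 2 (PRC2). They do so as interchangeable subunits of the canonical Polycomb repressive complex 1 (PRC1), which keeps developmental genes silent and ubiquitinates histone H2A.

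Total expected counts, which are RSEM's estimates of sequenced fragments, were between 59822964 and 65774104 per sample in Dox and between 62344973 and 65758236 in No Dox. RBFOX1, the induced splicing regulator, had 189.8, 188.9 and 186.4 TPM (transcript abundance scaled for length and sample total) in Dox, against 6.92, 8.42 and 7.26 TPM in No Dox, with a log2 fold change of 4.55 ± 0.06 (SE, edgeR adjusted p = 7.6e-18). Counts assigned to RBFOX1 were not split between the construct and the gene of the cells themselves. Of 8 markers of HEK293 cells, 7 averaged at least 1 TPM in both groups. The sum of that list was 1021 to 1060 TPM in Dox and 1145 to 1160 TPM in No Dox, most of it VIM. In that list NEFM rose (log2 fold change 1.04, from a low level) and 4 fell, namely KRT18 (-0.39), KRT8 (-0.32), NEFL (-0.23) and VIM (-0.10). None of 6 markers of other cell types averaged 1 TPM, with sums of 0.78 to 1.22 TPM in Dox and 0.69 to 0.71 TPM in No Dox. PECAM1 of endothelium had no counts in the No Dox samples and 1 expected count in Dox 2, given as 0 TPM. COL3A1 of fibroblasts rose (log2 fold change 0.79), at 0.22, 0.16 and 0.25 TPM in Dox, against 0.14, 0.10 and 0.12 TPM in No Dox. The part of these differences between groups in the results that follow was not tested. Sources do not say whether replicates were separate cultures, so p-values measure the spread between these samples, which may be technical.

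At the gene level, CBX5 and CBX1 were higher in every Dox sample than in any No Dox sample, CBX2 was lower in every Dox sample, and CBX3, CBX6, CBX7 and CBX8 had overlapping groups. The share of all genes without overlap was not counted, so this separation only describes the 7 genes. Among these genes 4 of 7 passed the threshold, an adjusted p of 0.05 by edgeR over all 18264 genes tested. CBX1, CBX5 and CBX7 were higher in Dox and CBX2 was lower. The same test called 51.4% of all genes, 24.9% as higher and 26.5% as lower in Dox. The median size of the log2 fold change was 0.18 among the 7 genes and 0.18 among all genes, and the median signed value was 0.00 among the 7 genes and 0.01 among all genes. Without TMM normalization all values were shifted, with a median of 0.05 over all genes, and the calls over all genes were divided into 5682 higher and 3753 lower, against 4544 higher and 4841 lower with it. In bulk samples, fewer cells that express a gene and less RNA per cell cannot be told apart.

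**Figure D1:**
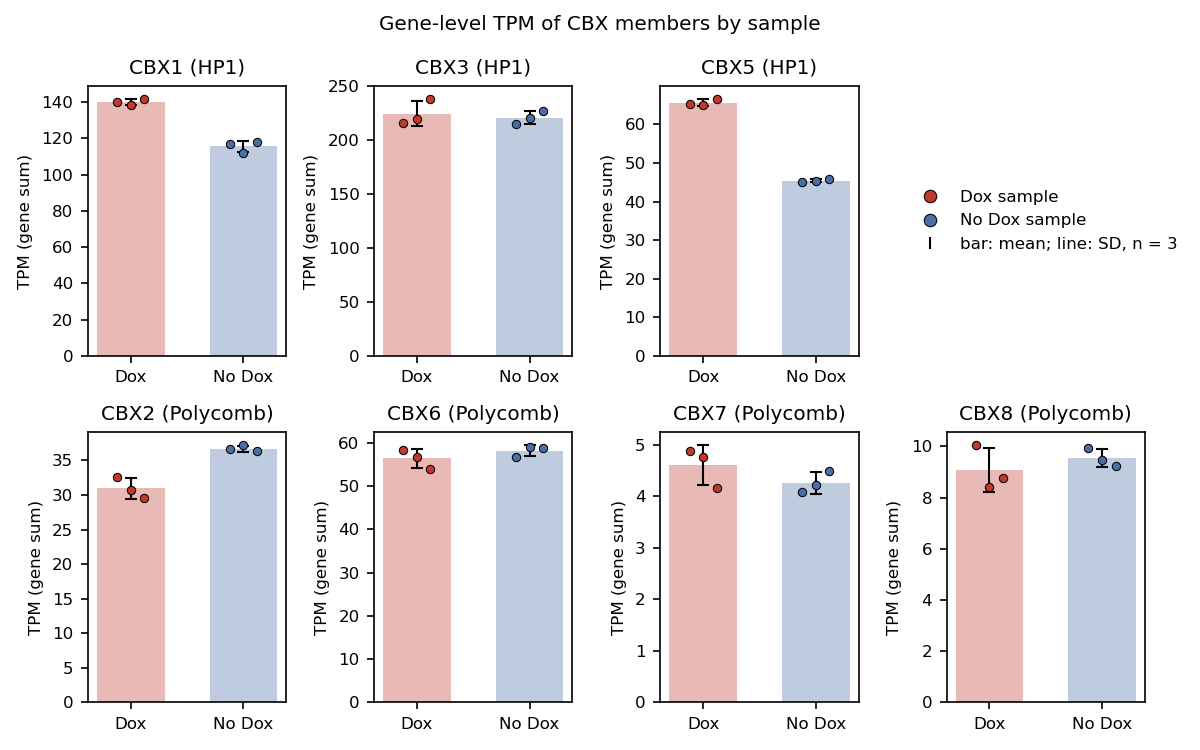
Gene-level TPM of each CBX gene in the Dox samples (left, red) and the No Dox samples (right, blue), with points for samples, bars for means and lines for the SD (n = 3 each), on axes that start at 0. CBX5 (65.1 to 66.6 against 45.1 to 45.8 TPM) and CBX1 lie higher in Dox and CBX2 lies lower, with no overlap between the groups, and the groups of the other 4 genes overlap.

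Of the HP1 genes, CBX5 (ENSG00000094916.16), which encodes HP1 alpha, had the largest difference. It was at 65.2, 65.1 and 66.6 TPM in Dox, against 45.1, 45.3 and 45.8 TPM in No Dox. The SD within a group was under 1 TPM, and the lowest Dox sample lay well above the highest No Dox sample. The means were 65.6 ± 0.86 TPM in Dox and 45.4 ± 0.36 TPM in No Dox (SD, n = 3 each), a log2 fold change of 0.61 ± 0.02 (SE) or 1.53-fold. Of all genes tested, 10.5% had a log2 fold change at least as large in either direction. The value was between 0.52 and 0.66 under the 12 alternatives and passed the threshold in each.

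CBX1 (ENSG00000108468.15), which encodes HP1 beta, had 139.8, 138.7 and 141.8 TPM in Dox, against 116.7, 111.9 and 117.9 TPM in No Dox. The groups were separated by more than the range within either. The means were 140.1 ± 1.58 TPM in Dox and 115.5 ± 3.18 TPM in No Dox (SD, n = 3 each), with a log2 fold change of 0.25 ± 0.03 (SE), or 1.19-fold. A difference of this size was common, since 37.4% of all genes had one at least as large.

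In contrast, CBX3 (ENSG00000122565.19), which encodes HP1 gamma and was the most abundant of the 7 genes, had similar values in the groups. It was at 215.9, 219.4 and 238.1 TPM in Dox, against 215.0, 220.2 and 227.0 TPM in No Dox. Dox 3 was the highest sample and the other samples were mixed. The log2 fold change was 0.00 ± 0.03 (SE), and it ran from -0.04 to 0.05 under the 12 alternatives without passing the threshold in any.

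The summed TPM of the 3 HP1 genes was 420.9, 423.2 and 446.5 in Dox, against 376.8, 377.3 and 390.7 in No Dox. All Dox sums were above all No Dox sums. CBX5 made up 15.3 ± 0.30% of the sum in Dox and 11.9 ± 0.15% in No Dox (SD, n = 3 each), and CBX1 made up 32.6 ± 0.75% in Dox and 30.3 ± 0.66% in No Dox. The share of CBX3 was 52.2 ± 1.0% in Dox and 57.8 ± 0.68% in No Dox. Thus CBX3, with similar levels in both groups, held a smaller share of HP1 transcripts in Dox. These shares are of transcripts, and proteins were not measured here.

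**Figure D2:**
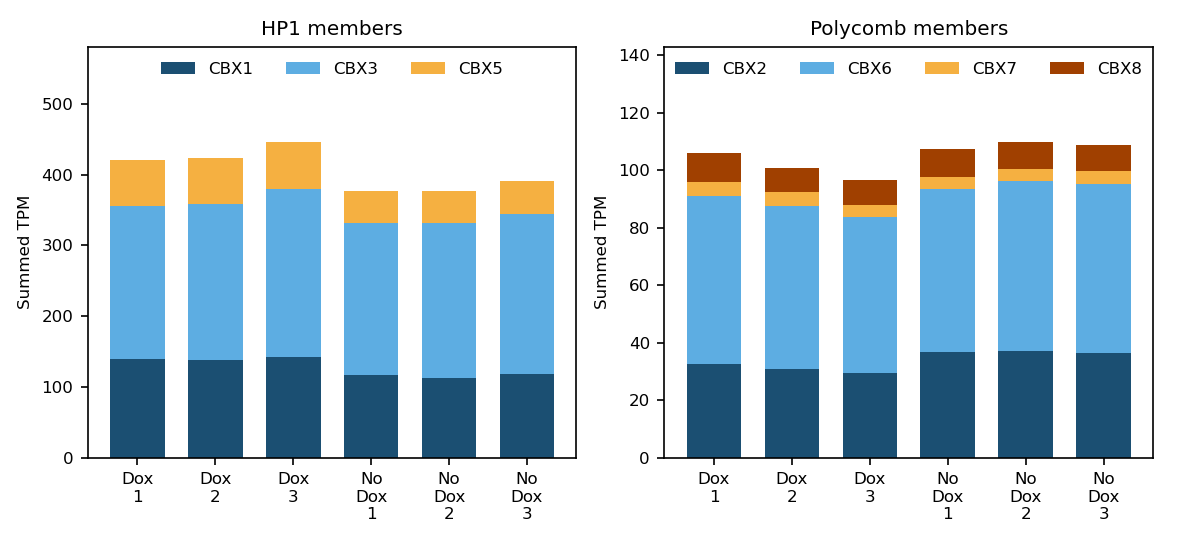
Summed TPM of the HP1 genes (left) and of the Polycomb CBX genes (right) in each sample, Dox samples before No Dox samples, with a color for each gene. HP1 sums are 420.9 to 446.5 TPM in Dox and 376.8 to 390.7 TPM in No Dox, and Polycomb sums are 96.5 to 105.9 TPM in Dox and 107.4 to 109.9 TPM in No Dox.

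Of the Polycomb genes analysed here, CBX2 (ENSG00000173894.11), whose protein can compact nucleosomes within PRC1, differed between the groups without overlap. It was at 32.6, 30.7 and 29.6 TPM in Dox, against 36.7, 37.2 and 36.3 TPM in No Dox. The highest Dox sample was below the lowest No Dox sample, and the Dox samples were the more scattered. The means were 31.0 ± 1.52 TPM in Dox and 36.7 ± 0.43 TPM in No Dox (SD, n = 3 each), with a log2 fold change of -0.24 ± 0.03 (SE). CBX2 passed the threshold under all 12 alternatives, and 38.4% of all genes had a change at least as large.

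CBX6 (ENSG00000183741.11) was the most abundant of these Polycomb genes. Its levels were 58.4, 56.9 and 54.0 TPM in Dox, against 56.8, 59.0 and 58.8 TPM in No Dox. Dox 1 lay within the No Dox range and Dox 3 lay below it. The log2 fold change was -0.05 ± 0.03 (SE). It did not pass the threshold with the filter on low counts and passed without it, where the value was -0.07.

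CBX7 (ENSG00000100307.13), a Polycomb subunit known for delaying cellular senescence, was the least abundant, at 4.89, 4.76 and 4.17 TPM in Dox, against 4.08, 4.22 and 4.50 TPM in No Dox. Dox 3 lay within the No Dox range, so the groups overlapped in TPM. Its expected counts were 709, 637 and 662 in Dox, against 554, 563 and 607 in No Dox, and did not overlap. The log2 fold change from counts was 0.18 ± 0.06 (SE). That call was the least stable among the genes, since it was lost with DESeq2 (0.18), on the log2(TPM + 1) scale (0.09), and without Dox 1 (0.16), Dox 2 (0.17), No Dox 1 (0.13) or No Dox 2 (0.18).

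CBX8 (ENSG00000141570.11), a neighbour of CBX2 in the genome and another canonical PRC1 subunit, had 10.0, 8.42 and 8.75 TPM in Dox, against 9.93, 9.46 and 9.25 TPM in No Dox. Dox 1 was the highest of all samples and Dox 2 the lowest. The log2 fold change was -0.01 ± 0.05 (SE), with values between -0.07 and 0.04 under the 12 alternatives, none past the threshold. Thus CBX2 and CBX8 gave different fold changes side by side, although the difference between them was not tested.

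The summed TPM of the 4 Polycomb genes was 105.9, 100.7 and 96.5 in Dox, against 107.4, 109.9 and 108.9 in No Dox. The Dox sums were lower in every sample, by little in Dox 1. CBX2 made up 30.6 ± 0.14% of the sum in Dox and 33.8 ± 0.38% in No Dox (SD, n = 3 each), and CBX6 made up 55.9 ± 0.66% in Dox and 53.5 ± 0.61% in No Dox. CBX8 held 8.97 ± 0.57% in Dox and 8.78 ± 0.40% in No Dox, and CBX7 held the rest.

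TPM values are scaled for length and can be compared between genes. In Dox the order was CBX3, CBX1, CBX5, CBX6, CBX2, CBX8 and CBX7. In No Dox it was CBX3, CBX1, CBX6, CBX5, CBX2, CBX8 and CBX7, so that CBX5 and CBX6 changed places. No neighbours in either order had overlapping ranges over the 3 samples of a group. In ratio, the largest gap was between the 2 least abundant genes and the others, as CBX8 averaged 9.07 TPM in Dox and 9.55 TPM in No Dox while CBX2 averaged 31.0 TPM in Dox and 36.7 TPM in No Dox.

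Next, the isoforms were examined. Of the 37 isoforms, 2 had no counts in any sample, both of CBX5, and 26 passed the filter on low counts and were tested with limma-voom. The files give isoforms by name, identifier and length, and reads from shared exons are apportioned by RSEM, so each value is a model estimate. Among those tested, 3 were past the threshold and higher in Dox and 4 were past it and lower, against 6.19% and 6.44% of all 72438 isoforms tested (12.6% in either direction). These came from CBX5, CBX1, CBX2 and CBX6. The share called depended on the counts of the isoforms tested. Among isoforms with a mean count of at least 50, 6 CBX isoforms passed, beside 23.1% of all 43810 tested. The median size of the log2 fold change was 0.25 among the 26 isoforms and 0.35 among all isoforms tested.

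**Figure D3:**
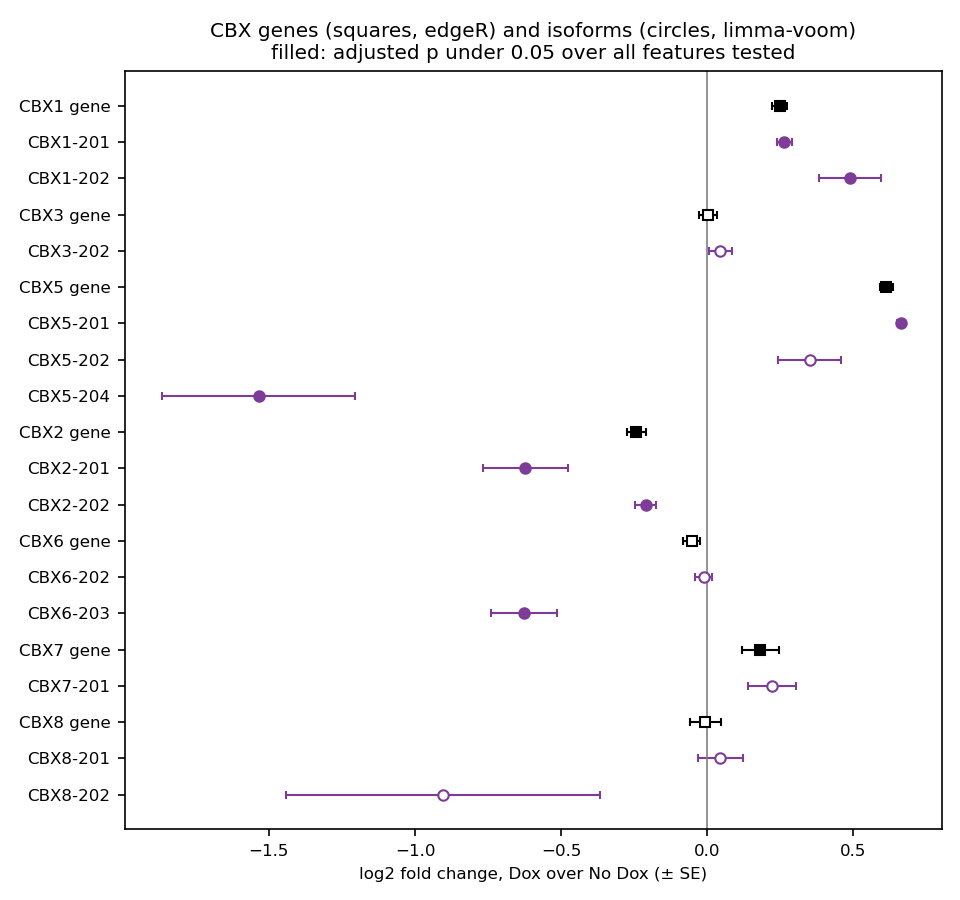
Log2 fold change of Dox over No Dox with its SE, for each CBX gene (squares, edgeR) and for the named isoforms that were tested (circles, limma-voom). Filled symbols passed an adjusted p of 0.05 over all features tested, and CBX5-204 at -1.54 lies opposite to CBX5-201 at 0.66.

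The main CBX5 isoform, CBX5-201 (ENST00000209875.9, 11546 nt), had 49.9, 48.6 and 48.4 TPM in Dox, against 30.6, 30.6 and 31.0 TPM in No Dox. No sample came near the other group. Its log2 fold change was 0.66 ± 0.01 (SE), and it passed the threshold under all 12 alternatives. A shorter isoform, CBX5-202 (ENST00000439541.6, 1832 nt), had 10.1, 11.8 and 12.9 TPM in Dox, against 9.13, 8.83 and 9.0 TPM in No Dox. Its log2 fold change of 0.35 ± 0.11 (SE) did not pass the threshold, but passed it with DESeq2 (0.36) and without Dox 1 (0.46).

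CBX5-204 (ENST00000550411.5, 894 nt), a minor isoform, was lower in every Dox sample, at 1.15, 0.43 and 0.65 TPM in Dox, against 1.91, 2.21 and 2.02 TPM in No Dox. These values rest on few fragments, with expected counts of 36.8, 12.9 and 21.2 in Dox and 62.2, 67.9 and 63.1 in No Dox. The log2 fold change was -1.54 ± 0.33 (SE). The call was lost with edgeR on isoform counts (-1.47) and without Dox 2 (-1.25), Dox 3 (-1.48), No Dox 1 (-1.58), No Dox 2 (-1.49) or No Dox 3 (-1.55).

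The isoform percentage is the part of a gene's abundance that RSEM assigned to an isoform. CBX5-201 made up 76.6, 74.6 and 72.7% of CBX5 in Dox, against 67.9, 67.7 and 67.7% in No Dox. The groups did not overlap, and the difference of the means was 6.89 percentage points. CBX5-202 made up 15.6, 18.2 and 19.3% in Dox, against 20.3, 19.5 and 19.7% in No Dox, and CBX5-204 made up 1.76, 0.67 and 0.97% in Dox, against 4.24, 4.89 and 4.42% in No Dox. Thus the longest isoform held more of CBX5 in Dox and these 2 shorter ones held less. Measured as a share of expected counts, in which a long transcript weighs more, the difference for CBX5-201 was 1.56 percentage points, and that for CBX5-204 was -0.30 in place of -3.38.

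**Figure D4:**
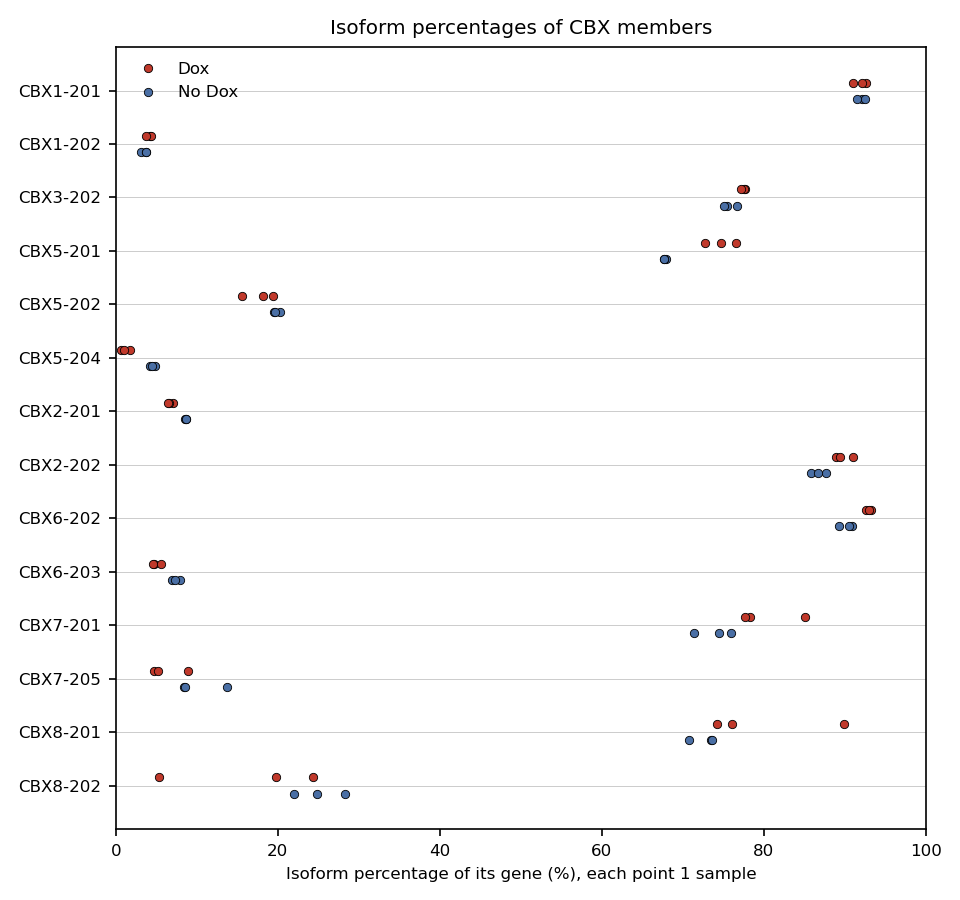
Isoform percentage of each named isoform in each sample, with Dox points (red) above No Dox points (blue) on each line. CBX5-201 is at 72.7 to 76.6% in Dox and 67.7 to 67.9% in No Dox, and CBX8-202 in Dox 2 (5.28%) stands apart from the other samples.

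Both named CBX1 isoforms were higher in Dox. CBX1-201 (ENST00000225603.9, 2182 nt) had 127.2, 128.3 and 130.7 TPM in Dox, against 107.5, 103.4 and 107.9 TPM in No Dox, with a log2 fold change of 0.26 ± 0.02 (SE). CBX1-202 (ENST00000393408.7, 2422 nt) had 5.88, 6.08 and 5.29 TPM in Dox, against 3.62, 4.13 and 4.46 TPM in No Dox, with a log2 fold change of 0.49 ± 0.11 (SE). Neither isoform overlapped between the groups. CBX1-201 kept 91.9 ± 0.83% of the gene in Dox and 92.0 ± 0.48% in No Dox (SD, n = 3 each). The call of CBX1-201 held under all 12 alternatives, whereas that of CBX1-202 was lost without each of Dox 1 (0.48), Dox 2 (0.45), No Dox 1 (0.41), No Dox 2 (0.50) and No Dox 3 (0.55), and on all 6 samples without the filter on low counts (0.48).

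CBX3-202 (ENST00000396386.7, 2061 nt) was the main CBX3 isoform and had 167.8, 170.1 and 183.7 TPM in Dox, against 165.0, 166.1 and 170.5 TPM in No Dox. Its percentage was 77.7, 77.5 and 77.2% in Dox, against 76.7, 75.4 and 75.1% in No Dox. The percentages did not overlap, by a margin smaller than their range in No Dox. The log2 fold change was 0.05 ± 0.04 (SE) and did not pass the threshold. All 8 isoforms of CBX3 were tested with limma-voom, and 0 passed, with 1 at an unadjusted p under 0.05. That was CBX3-207, outside the rule for named isoforms, with a log2 fold change of 0.98 ± 0.31 (SE). It was at 1.64, 2.07 and 1.77 TPM in Dox, against 0.89, 1.04 and 0.78 TPM in No Dox. With DESeq2 the count over all CBX isoforms was 9, against 7, where DESeq2 called 21.5% of all isoforms, against 12.6%.

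Both named CBX2 isoforms were lower in Dox. CBX2-202 (ENST00000310942.9, 4628 nt), which holds most of the gene, had 28.9, 27.9 and 26.4 TPM in Dox, against 32.1, 31.9 and 31.5 TPM in No Dox, with a log2 fold change of -0.21 ± 0.04 (SE). CBX2-201 (ENST00000269399.5, 1061 nt) had 2.30, 2.01 and 1.92 TPM in Dox, against 3.12, 3.24 and 3.15 TPM in No Dox, with a log2 fold change of -0.62 ± 0.15 (SE). Neither isoform overlapped between the groups. CBX2-201 made up 7.07, 6.55 and 6.50% of the gene in Dox, against 8.51, 8.72 and 8.66% in No Dox. Without No Dox 1 the call of CBX2-202 was lost (-0.20), and that of CBX2-201 was lost without each of Dox 1 (-0.69), Dox 2 (-0.60), Dox 3 (-0.57), No Dox 1 (-0.63), No Dox 2 (-0.61) and No Dox 3 (-0.63), and on all 6 samples without the filter on low counts (-0.63).

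For CBX6 the gene level was similar in the groups and a minor isoform was not. CBX6-203 (ENST00000469420.1, 2213 nt) had 2.75, 2.64 and 2.99 TPM in Dox, against 3.93, 4.66 and 4.31 TPM in No Dox, with a log2 fold change of -0.63 ± 0.11 (SE). It made up 4.72, 4.64 and 5.54% of the gene in Dox, against 6.92, 7.89 and 7.33% in No Dox, without overlap. The call was lost without Dox 1 (-0.61), Dox 2 (-0.59) or No Dox 3 (-0.63). The main isoform CBX6-202 (ENST00000407418.7, 6122 nt) had a log2 fold change of -0.01 ± 0.03 (SE), and its percentage was 92.9 ± 0.35% in Dox and 90.2 ± 0.82% in No Dox (SD, n = 3 each).

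The least abundant genes had the most scattered isoform percentages. CBX7-201 (ENST00000216133.10, 4111 nt) made up 78.3, 77.7 and 85.1% of CBX7 in Dox, against 71.3, 75.9 and 74.5% in No Dox. Its log2 fold change of 0.22 ± 0.08 (SE) did not pass the threshold. CBX7-205 (ENST00000477827.1, 526 nt) had 3.21 to 6.73 expected counts in Dox and 5.31 to 8.86 in No Dox, and did not pass the filter.

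CBX8-201 (ENST00000269385.9, 3752 nt) made up 74.2, 89.9 and 76.1% of CBX8 in Dox, against 73.5, 73.6 and 70.8% in No Dox. CBX8-202 (ENST00000413392.5, 777 nt) made up 24.3, 5.28 and 19.8% in Dox, against 22.0, 24.8 and 28.3% in No Dox. Dox 2 decided these differences. For CBX8-202 the difference of means was -8.58 percentage points with Dox 2 and -2.99 without it, and for CBX8-201 it was 7.45 with Dox 2 and 2.54 without it. As shares of expected counts these differences were -2.02 for CBX8-202 and 1.92 for CBX8-201. Neither isoform passed the threshold.

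Isoform usage, that is, a change of an isoform relative to the other isoforms of the gene, was examined with limma diffSplice. CBX5 and CBX6 passed the threshold, 2 of the 7 genes, against 27.5% of all 12328 genes tested. The F test of diffSplice called the same 2 genes and 25.7% of all genes. CBX6 was lost without Dox 1, No Dox 1, No Dox 2 or No Dox 3, which left 1 gene, and both remained without Dox 2 or Dox 3. With edgeR's diffSpliceDGE, 0 of the 7 genes passed and 1 had an unadjusted p under 0.05, with 1222 calls over all genes. When isoforms under 10% of their gene were left out, only CBX5 and 1 other CBX gene could be tested, and CBX5 passed, as did 30.1% of the 9992 genes tested in that way.

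The genes that work with these proteins were examined in 3 lists chosen from textbook roles, with earlier results of these data known. Genes of the lists given with an adjusted p were picked as the largest rises and falls past the threshold. Their adjusted p-values are therefore a description. Over the 41 genes of the lists, 9 rose, 16 fell and 16 did not pass the test, beside the 24.9% of all genes that rose and the 26.5% that fell. Among 13 genes of H3K9 methylation and HP1 binding, 1 rose and 6 fell, with a median log2 fold change of -0.06. Among 16 PRC1 subunits 4 rose and 5 fell, with a median of -0.02, and among 12 PRC2 subunits 4 rose and 5 fell, with a median of -0.02. The median of all genes tested was 0.01. These counts depended on the scaling, since without TMM 13 of the 41 genes rose and 10 fell, with 3 up and 3 down in the H3K9 list, 6 up and 3 down in PRC1 and 4 up and 4 down in PRC2. They also depended on the unit, since 3 of the genes called from counts had mean TPM values that differed in the opposite direction. ATF7IP, called lower from counts, was at 23.0, 22.5 and 22.8 TPM in Dox, against 19.95, 20.7 and 20.6 TPM in No Dox. PHC2 was called lower and averaged 36.4 TPM in Dox and 34.8 TPM in No Dox, and RNF2 was called higher and averaged 31.0 TPM in Dox and 31.2 TPM in No Dox. These 3 genes were named after their values were seen.

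**Figure D5:**
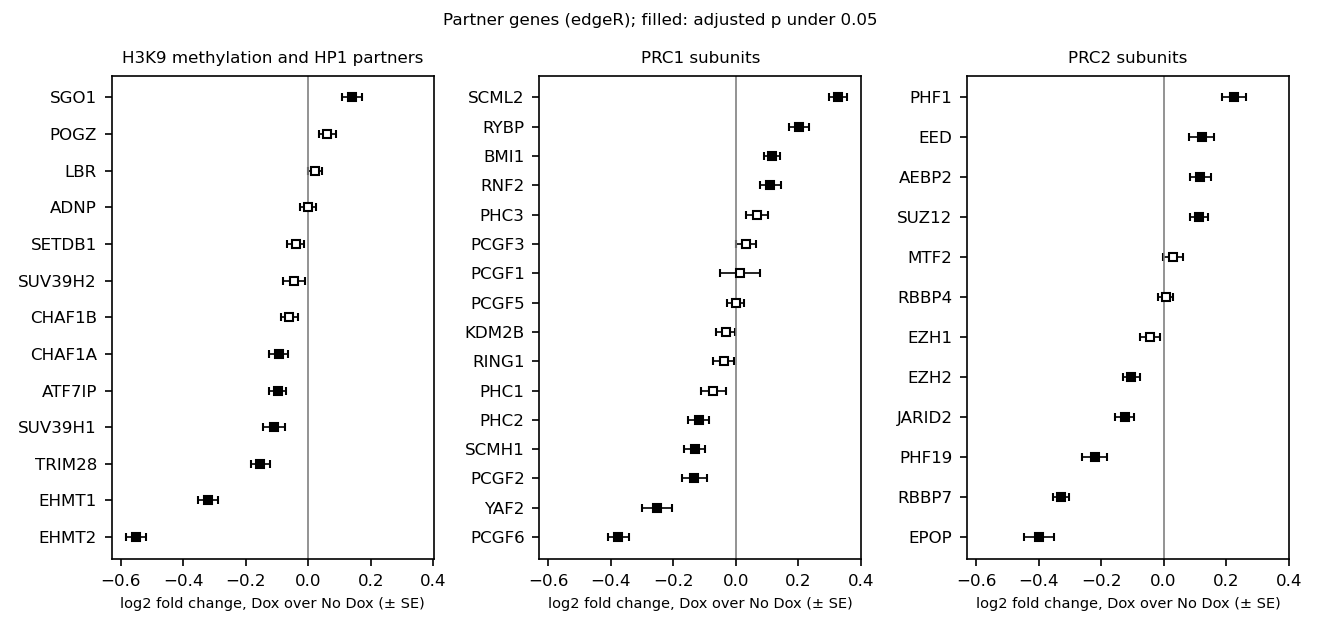
Log2 fold change of Dox over No Dox with its SE (edgeR) for the genes of H3K9 methylation and HP1 binding, the PRC1 subunits and the PRC2 subunits, each ordered by its value, with filled squares for an adjusted p under 0.05. EHMT2 has the lowest value, -0.55, and SCML2 the highest, 0.33.

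In the H3K9 list, the largest falls were of EHMT2 and EHMT1, which encode the G9a and GLP methyltransferases that act as a heterodimer. EHMT2 was at 44.1, 40.4 and 41.6 TPM in Dox, against 57.3, 58.7 and 57.9 TPM in No Dox, with a log2 fold change of -0.55 ± 0.03 (SE, edgeR adjusted p = 7.6e-10). EHMT1 was at 40.6, 42.2 and 39.1 TPM in Dox, against 46.4, 48.6 and 46.7 TPM in No Dox, with a log2 fold change of -0.32 ± 0.03 (SE, edgeR adjusted p = 4.7e-07). In both genes all Dox samples were below all No Dox samples. TRIM28, the KAP1 corepressor that binds HP1, also fell by 0.15 on the log2 scale (SE 0.03, edgeR adjusted p = 0.00064), at 778.6, 765.3 and 715.1 TPM in Dox, against 817.6, 849.5 and 813.6 TPM in No Dox. SGO1, a shugoshin that protects centromeric cohesion, was the only gene of the list that rose, with a log2 fold change of 0.14 ± 0.03 (SE, edgeR adjusted p = 0.0016). The methyltransferases SETDB1 and SUV39H2 and the HP1-binding lamin B receptor LBR were among the 6 that did not pass.

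Among PRC1 subunits, SCML2 had the largest rise, with 48.6, 45.5 and 45.5 TPM in Dox, against 36.6, 35.8 and 36.6 TPM in No Dox, and a log2 fold change of 0.33 ± 0.03 (SE, edgeR adjusted p = 1.1e-07). RYBP, a subunit of the variant complexes that lack CBX proteins, rose by 0.20 ± 0.03 (SE, log2, edgeR adjusted p = 6.4e-05). BMI1, a canonical subunit that pairs with the RING ubiquitin ligases, rose by 0.12 ± 0.02 (SE, log2, edgeR adjusted p = 0.0012). The largest fall was of PCGF6, a subunit of a variant complex, which was at 35.1, 33.7 and 36.5 TPM in Dox, against 43.0, 43.4 and 45.2 TPM in No Dox, with a log2 fold change of -0.38 ± 0.03 (SE, edgeR adjusted p = 1.5e-07). YAF2, the paralog of RYBP, fell by 0.25 on the log2 scale (SE 0.05, edgeR adjusted p = 0.00035), and PCGF2, the paralog of BMI1, fell by 0.13 (SE 0.04, edgeR adjusted p = 0.01). In TPM the groups of YAF2 and PCGF2 overlapped, and PCGF2 did not pass without TMM (-0.09). Thus RYBP and YAF2, and likewise BMI1 and PCGF2, had fold changes of opposite sign.

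Among PRC2 subunits, PHF1, an accessory protein with a Tudor domain, had the largest rise, at 31.3, 31.5 and 30.8 TPM in Dox, against 25.4, 28.3 and 25.0 TPM in No Dox, with a log2 fold change of 0.23 ± 0.04 (SE, edgeR adjusted p = 0.00011). The core subunit EED and the accessory subunit AEBP2 each rose by 0.12 on the log2 scale, with edgeR adjusted p of 0.018 and 0.0088. EED did not pass without Dox 1 (0.11), No Dox 2 (0.10) or No Dox 3 (0.11), and AEBP2 did not pass without No Dox 1 (0.10). EPOP, an elongin-binding accessory subunit, had the largest fall, with 10.4, 10.5 and 10.0 TPM in Dox, against 13.5, 12.2 and 14.0 TPM in No Dox, and a log2 fold change of -0.40 ± 0.05 (SE, edgeR adjusted p = 3.2e-06). RBBP7, a histone chaperone that belongs to several complexes besides PRC2, fell to 347.9, 350.6 and 365.6 TPM in Dox, against 444.0, 440.8 and 437.1 TPM in No Dox (log2 fold change -0.33 ± 0.02, SE, edgeR adjusted p = 2.1e-08). PHF19, a relative of PHF1, fell by 0.22 on the log2 scale (SE 0.04, edgeR adjusted p = 0.00019).

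CBX5 and CBX3 each start beside a gene of an hnRNP protein that is read in the opposite direction, HNRNPA1 beside CBX5 and HNRNPA2B1 beside CBX3. These splicing regulators were named for that position, outside the rule for named genes. HNRNPA1 had 2244, 2270 and 2365 TPM in Dox, against 2468, 2474 and 2550 TPM in No Dox, with a log2 fold change of -0.09 ± 0.02 (SE, edgeR adjusted p = 0.0031). HNRNPA2B1 had 1627, 1635 and 1703 TPM in Dox, against 1705, 1710 and 1772 TPM in No Dox, with a log2 fold change of -0.11 ± 0.02 (SE, edgeR adjusted p = 0.00056). Thus the value of HNRNPA1 had the opposite sign to that of CBX5, at 0.61, while that of CBX3 was 0.00. Without TMM the log2 fold change was -0.04 for HNRNPA1, which did not pass, and -0.06 for HNRNPA2B1.

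Pseudogenes of the CBX genes could take reads from them. Of 14 such pseudogenes, 8 had no counts in any sample and 2 averaged at least 0.5 TPM in a group. CBX3P4 had 1.05, 0.40 and 0.82 TPM in Dox, against 0.81, 0.57 and 0.60 TPM in No Dox, and CBX3P9 had 0.57, 0.20 and 0.82 TPM in Dox, against 0.62, 0.56 and 1.10 TPM in No Dox. All 14 together had between 11.1 and 26.0 expected counts per sample, whereas CBX3 alone had 15649 to 18545 in Dox and 16000 to 16722 in No Dox.

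Finally, the genes with the most similar pattern over the 6 samples were sought among 8848 genes with a mean of at least 10 TPM in both groups. Likeness was the Euclidean distance between log2 CPM values, each set against the gene's own No Dox mean. For CBX5 the nearest were LSM14B (distance 0.04) and MBTPS2 (0.07), for CBX1 they were PJA1 and MTFR1L (0.03 each), and for CBX2 they were PPP1CA (0.02) and MOV10 (0.03). For CBX3 they were ABCD3 (0.02) and ECHDC1 (0.03), and for CBX6 they were DPF2 and TACC3 (0.02 each). For CBX7 they were FOXN3 and GPR89B, and for CBX8 they were NUP210 and AL445363.3, all at 0.07. CBX7 and CBX8 were below 10 TPM and so were not candidates for the other genes. None of the remaining 5 CBX genes was among the 2 nearest of any of the 7. With values set against the No Dox mean, the distance rests mostly on the fold change. LSM14B (0.62) and PJA1 (0.25) had nearly the log2 fold changes of CBX5 (0.61) and CBX1 (0.25). The absence of other CBX genes therefore follows largely from their different fold changes.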

How the data were processed

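According to the labels and methods, the authors made stranded mRNA libraries of 3 Dox and 3 No Dox samples, trimmed reads with cutadapt, mapped them to GRCh38 with STAR and quantified isoforms with RSEM. For the RNA-seq, versions of cutadapt, STAR and RSEM and the annotation release have no entry (not given in the sources used here). Deposited expected counts are estimated fragments per isoform, not normalized. The deposited TPM values are scaled by RSEM for isoform length and sample total. The deposited isoform percentage is each isoform's percent of the TPM of its gene. Depth was between 59822964 and 65774104 expected counts per sample, and replicate libraries differed by more than sampling noise. Chi-squared over its degrees of freedom was 6.21 and 4.28 for the pairs with Dox 3. It was 2.29 to 2.97 for the other pairs within a group.

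Expected counts were summed per gene, rounded and tested with edgeR 4.0.16 (TMM, filterByExpr, glmQLFTest, group as the only term). The isoform test was limma-voom (limma 3.58.1) and the usage test diffSplice (Simes) in R 4.3.3. Tests were two-sided, with p-values adjusted over all features by Benjamini-Hochberg and a threshold of 0.05. No adjusted p of a CBX gene is printed. Scripts were tested on simulated data. The rule named all 7 CBX genes and their isoforms that reached 10% of the gene in a group, differed by 5 percentage points or passed the threshold. It also named pseudogenes of at least 0.5 TPM, RBFOX1, the 2 nearest genes by pattern, and up to 3 rises and 3 falls per partner list among genes of at least 5 TPM. The CBX genes, lists and tests were chosen with earlier results of these data known. Alternatives were DESeq2 1.42.0, other normalizations and filters, the replicate number as a block, leaving out each sample and, added after seeing the data, limma on log2(TPM + 1). Coordinates and sequences are not printed, since a human annotation was not used here.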

Additional observations from a re-analysis of the deposited data

How the results depend on the processing

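No call of a CBX gene or isoform changed sign under any alternative, while values near 0 did, such as CBX8 (-0.01, and 0.04 without TMM) and the percentage difference of CBX1-201 (-0.12, and 0.35 without Dox 1). Without TMM the balance of calls turned, to 5682 genes higher and 3753 lower over all genes and to 13 higher and 10 lower among partner genes. The count of CBX genes past the gene threshold was between 3 and 5 under 12 alternatives, against 4, and that of partner genes was between 21 and 27 under 11 alternatives, against 25. The 5 CBX genes and the 27 partner genes came without the filter on low counts, where 9637 of 31338 genes were called, against 9385 of 18264. The 21 partner genes came without No Dox 2, where 8323 of 18631 genes were called. DESeq2 and the log2(TPM + 1) fit each gave 3 CBX genes, beside 8301 and 6977 of 18264 genes. The 7 isoform calls became 4 with the replicate number as a block, where CBX1-202 (0.49), CBX2-201 (-0.62) and CBX5-204 (-1.41) were lost, and between 3 and 5 when a sample was left out. Over all isoforms tested, the block called 10% and leaving out a sample 7.21 to 8.43%, against 12.6%. The 2 usage calls became 0 with diffSpliceDGE, 1 when isoforms under 10% were left out, and 1 or 2 when a sample was left out. With a sample left out, 22 to 23.6% of all genes were called for usage, against 27.5%. Same-numbered samples deviated together only weakly (correlations of 0.041, 0.028 and 0.057 over 18264 genes). Each correlated best with its own number. Deviations were taken from the group mean, so positive correlations for some pairs force negative ones for others. This order therefore cannot settle whether samples were paired, and pairing is not part of the design. With the replicate block, the counts of CBX genes (4) and of usage calls (2) were the same, partner genes past the threshold were 26, and calls over all genes were 9806, against 9385. Over all isoforms, DESeq2 called 15546 and leaving out a sample gave 5518 to 6441, against 9151. diffSpliceDGE called 1222 genes for usage, against 3386. Isoform percentage differences taken as shares of expected counts were smaller for 12 of the 14 named isoforms and larger for CBX1-201 and CBX1-202, and were 0.59 for CBX2-202, 1.11 for CBX6-202 and 0.90 percentage points for CBX7-201. The log2(TPM + 1) fit, chosen after seeing the data, called 3809 genes higher and 3168 lower. Depth limits CBX7, CBX8 and the minor isoforms, whose counts were low.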
